A study of Mus musculus with 8 samples.

Results

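The C/EBP, Gfi1, PU.1, Runx1 and Tribbles genes are regulators that act, in differing directions, on the fates of blood progenitors, among them those of granulocytes and monocytes. They were taken as 10 named genes with every array probe set annotated to them: Cebpa, Cebpb, Cebpd, Cebpe, Gfi1, Gfi1b, Spi1 (which encodes PU.1), Runx1, Trib1 and Trib2. Of these, 9 had a probe set, 19 probe sets in all out of 45037 tested. Cebpe had none in the annotation used, so it was not analysed here.

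Marrow cells sorted for Cd11b, an integrin subunit of granulocytes and monocytes, were profiled from mice of mixed background (FVB and C57BL6), 8 weeks old, with 4 arrays per group. The control group had the genotype E2F1-/-2+/+3f/f and the experimental group Mxcre;E2F1-/-2-/-3f/f. Both groups therefore lacked E2f1 and carried floxed E2f3, while by genotype only the experimental group lacked E2f2 and carried the Cre transgene. Both groups were given pIpC, a synthetic inducer of interferon, as 5 injections of 250 µg, the last of them 24 h before death. The Mx promoter that drives Cre responds to interferon in many cell types and not in myeloid cells alone, and Cre and the E2f genotype cannot be told apart. No label states that each array stands for a separate animal. The p-values therefore reflect the variation among these 8 samples, some of which may be technical.

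C/EBP proteins are leucine zipper transcription factors: C/EBPα is needed to enter the granulocyte and monocyte lineage, C/EBPβ acts in emergency granulopoiesis and in macrophages, and C/EBPδ is an acute phase and neutrophil factor. PU.1 is an ETS factor whose dose balances lymphoid and myeloid fates, Runx1 opens many of the same enhancers with its partner Cbfb, and Gfi1 and Gfi1b are zinc finger repressors, Gfi1 of granulocytes and lymphocytes and Gfi1b of erythroid cells and megakaryocytes. Trib1 and Trib2 are pseudokinases that bring the ubiquitin ligase Cop1 to C/EBPα and so lower its level, and C/EBPα in turn restrains E2F activity.

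The deposited values are on the log2 scale after RMA, with array medians of 5.01 to 5.04. The sort marker gene Itgam read 11.50 to 11.66 in controls and 11.25 to 11.90 in experimental arrays, and the neutrophil gene S100a8 read 14.31 to 14.44 and 14.20 to 14.44. E2f2 probe set 1455790_at read 7.76 to 8.19 in controls and 7.06 to 7.47 in experimental arrays (adjusted p = 0.0351), the brighter E2f2 probe set 1436434_at 9.54 to 10.20 and 9.08 to 9.53 (adjusted p = 0.107), and E2f3 probe set 1434564_at read 7.43 to 7.67 and 7.69 to 8.07 (adjusted p = 0.201). The dimmer E2f3 probe set 1427462_at read 5.39 to 5.69 and 5.48 to 5.78 (limma adjusted p = 0.657). E2f1, which both groups lacked by genotype, still read 6.71 to 7.03 in controls and 6.81 to 8.08 in experimental arrays at its brightest probe set, 1417878_at. The position of these probe sets against the deleted exons was not analysed here. Replicates 1 and 2 carry sample codes of a digit and a letter and replicates 3 and 4 of a letter and digits, and arrays of the same code style deviated together. As a measure of RNA integrity, the actin control probe sets at the 3' end read above those at the 5' end by 0.27 to 0.32 (log2) in controls and by 0.34 to 0.54 in experimental arrays, and the part of this ratio in the results was not tested. The same ratio of Gapdh overlapped, at -0.14 to -0.09 and -0.16 to 0.03. The means of 5 of 11 cell type marker lists also separated the groups. The neutrophil, dendritic, B cell, megakaryocyte, and stem and progenitor list means were lower in each experimental array than in each control. Flt3 counts in both the dendritic and the stem and progenitor list. Single genes often overlapped. Without overlap were 1 of 6 neutrophil, 2 of 4 dendritic and 7 of 9 B cell markers. So were 5 of 8 megakaryocyte and 1 of 6 stem and progenitor markers. In the other lists these were 3 of 6 eosinophil and mast cell, 1 of 5 promyelocyte and 1 of 6 monocyte markers. There were also 1 of 6 T and NK cell markers and no macrophage or erythroid marker. Of all probe sets 10.8% had no overlap in either direction. Fewer cells of a type and less RNA per cell cannot be told apart in such sorted bulk samples.

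Trib1 and Trib2 were each lower past the threshold at 1 probe set in the experimental arrays, and the Trib2 call depended on the arrays used. The genes of C/EBPα, PU.1, Gfi1 and Gfi1b showed no difference past the threshold. A call required adjusted p under 0.05 in limma's fit, with p adjusted by Benjamini-Hochberg across the 45037 probe sets. By that rule 2 of the 19 member probe sets passed, both lower, one of Trib1 and one of Trib2. Of all probe sets 2.58% passed in either direction, 1.03% as higher and 1.55% as lower. The median log2 difference, experimental minus control, was -0.25 over the 19 member probe sets and 0.003 over all probe sets. A negative sign was found in 15 of the 19, and the share with that sign over all probe sets was not counted. At unadjusted p under 0.05 in limma's fit there were 7 of the 19, again all lower, against 17% of all probe sets in either direction. In 7 the control and experimental arrays did not overlap, against 10.8% of all in either direction. Both sets of 7 came from Cebpd, Runx1, Trib1 and Trib2 alone. Probe sets of 1 gene are not independent, and Runx1 had 6 of the 19 and Trib2 3.

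**Figure D1:**
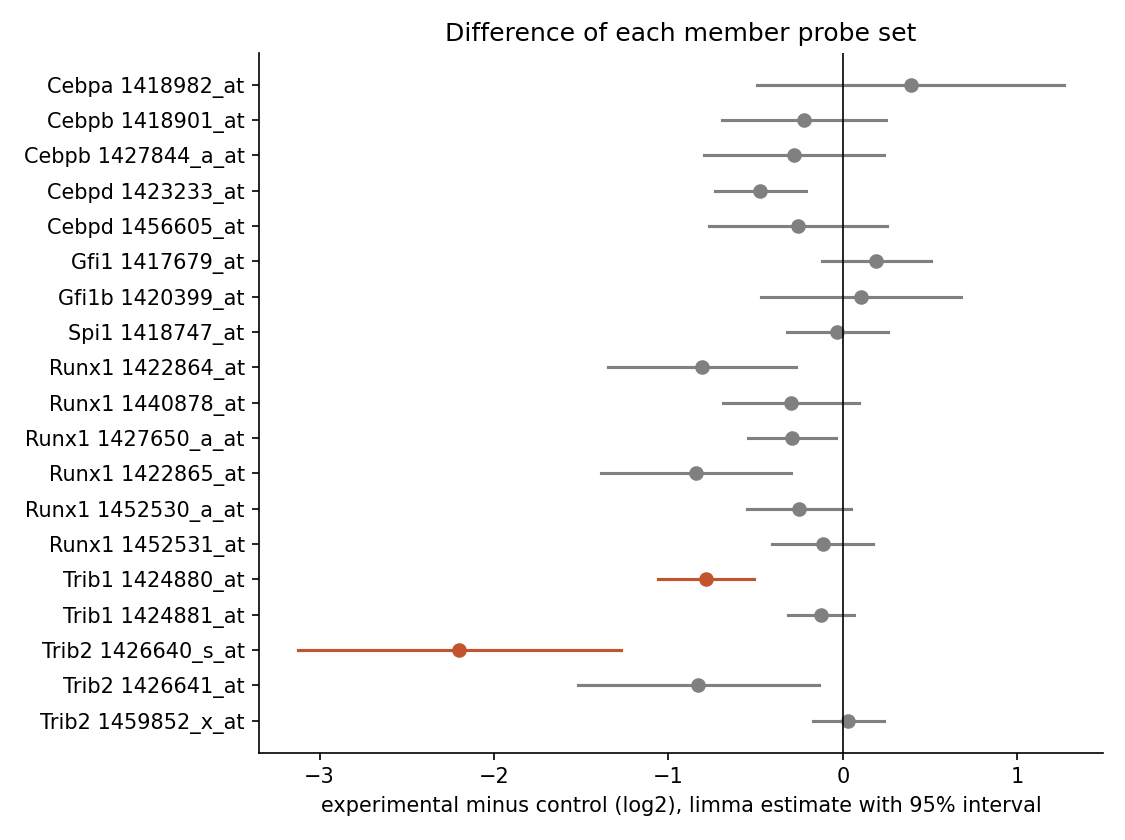
Difference of each of the 19 member probe sets, experimental minus control on the log2 scale (horizontal axis), with limma's estimate as a point and its 95% interval as a line; orange marks adjusted p under 0.05. Trib2 1426640_s_at at -2.20 lies farthest from 0, Trib1 1424880_at at -0.78 has a narrower interval, and 15 of the 19 points lie left of 0.

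Trib1 fell at its brighter probe set. In controls 1424880_at read 7.79, 7.87, 8.02 and 7.91 in replicates 1 to 4, and in experimental arrays 6.94, 7.08, 7.45 and 6.99. All 4 experimental arrays lay below all 4 controls, the nearest of them being experimental replicate 3. The log2 difference was -0.78 ± 0.12 (SE, n = 4 per group, adjusted p = 0.0143), or 58.1% of the control level, and by code style it was -0.82 (replicates 1 and 2) and -0.74 (replicates 3 and 4). Without 1 array the difference stayed between -0.90 and -0.72, and adjusted p between 0.0073 and 0.0504, the highest without control replicate 4 and past 0.05 in that fit alone. The dimmer probe set 1424881_at read 4.37 to 4.59 in controls and 4.28 to 4.36 in experimental arrays, also without overlap, but differed by only -0.13 ± 0.09 (SE, adjusted p = 0.504). The gap of 0.66 between the differences of the 2 probe sets reached the smallest p of an exact permutation test of 4 against 4 (two-sided, p = 0.0286), and adjusted p = 0.171 over the 18 pairs of probe sets of Cebpb, Cebpd, Runx1 and Trib1.

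In the mouse Trib1 is needed for eosinophils and for tissue macrophages of the alternatively activated kind. Of 6 eosinophil and mast cell markers, Epx, the eosinophil peroxidase gene, was higher (6.07 ± 0.21 in controls and 6.98 ± 0.09 in experimental arrays, SD, n = 4 each, adjusted p = 0.00672 by limma), as was the eosinophil lectin gene Siglecf (6.64 ± 0.18 and 7.93 ± 0.59, adjusted p = 0.0326). The eosinophil gene Prg2 (-0.17) and the mast cell and basophil genes Ms4a2 (-0.77), Mcpt8 (-0.46) and Cpa3 (0.09) did not pass. The list had a median log2 difference of -0.04, and its summed linear level ranged from 1488 to 2091 in controls and 1262 to 2150 in experimental arrays. No macrophage marker of 5 passed, with list means of 7.18 to 9.22 and 7.47 to 8.34 on the log2 scale.

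Trib2 had the largest change among the member probe sets. Probe set 1426640_s_at read 8.07, 5.97, 6.47 and 6.85 in control replicates 1 to 4 and 5.36, 4.36, 4.66 and 4.19 in experimental replicates 1 to 4. Control replicate 1 stood 1.23 above the next control, and the lowest control lay above the highest experimental array. The log2 difference was -2.20 ± 0.41 (SE, n = 4 per group, adjusted p = 0.0269), which is 21.8% of the control level with a 95% interval of -3.13 to -1.27 on the log2 scale. It was alike in both code styles, -2.16 for replicates 1 and 2 and -2.24 for replicates 3 and 4. The call depended on the arrays used. It passed in 4 of the 8 fits that leave out 1 array, with differences between -2.49 and -1.79. When replicate 3 or 4 of the controls was left out, adjusted p was 0.0519 or 0.0786, and when replicate 3 or 4 of the experimental group was, it was 0.0531 or 0.0731.

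The other Trib2 probe sets gave smaller differences or none. At 1426641_at the controls read 4.60, 3.10, 3.51 and 4.46 and the experimental arrays 3.33, 2.82, 2.98 and 3.23, so that control replicate 2 lay among the experimental arrays. Its difference was -0.83 ± 0.31 (SE, adjusted p = 0.207), and it passed with replicate number as a block (adjusted p = 0.0448). Probe set 1459852_x_at read 1.94 to 2.01 in controls and 1.87 to 2.12 in experimental arrays, a difference of 0.03 ± 0.09 (SE, adjusted p = 0.899). Its mean lies at the 0.73 percentile of all probe sets, and the suffix x marks probes that may also match other transcripts, so its positive sign is that of a probe set near the lowest values of the arrays.

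The Trib2 probe sets were also compared by their log2 difference within each array. Trib2 was singled out because its probe sets were known to disagree in these same data, so the p-values here only describe that disagreement. They were adjusted over the 3 Trib2 pairs alone. The Trib1 pair, with the same exact permutation p of 0.0286, had adjusted p = 0.171 over its 18 pairs. The value of 1426640_s_at minus that of 1426641_at was 2.92 ± 0.45 in controls and 1.55 ± 0.45 in experimental arrays (SD, n = 4 each), a change of -1.37 (exact permutation test, two-sided, p = 0.0286, or adjusted p = 0.0429 for 3 pairs). Against 1459852_x_at the change was -2.23 (exact permutation p = 0.0286, adjusted p = 0.0429), and between the 2 dimmer probe sets it was -0.86 (exact permutation p = 0.0571). The first of these changes did not pass without experimental replicate 4 (exact permutation p = 0.0571). A comparison with 1459852_x_at, which reads near the lowest values in all arrays, restates the difference of the other probe set. At 1426641_at the experimental arrays read below the 25th percentile of all probe sets (3.46), so whether Trib2 transcripts changed unequally cannot be told from these values. With same-numbered arrays paired, the smallest p an exact test can give is 0.125, which the changes of -1.37 and -2.23 both reached.

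**Figure D2:**
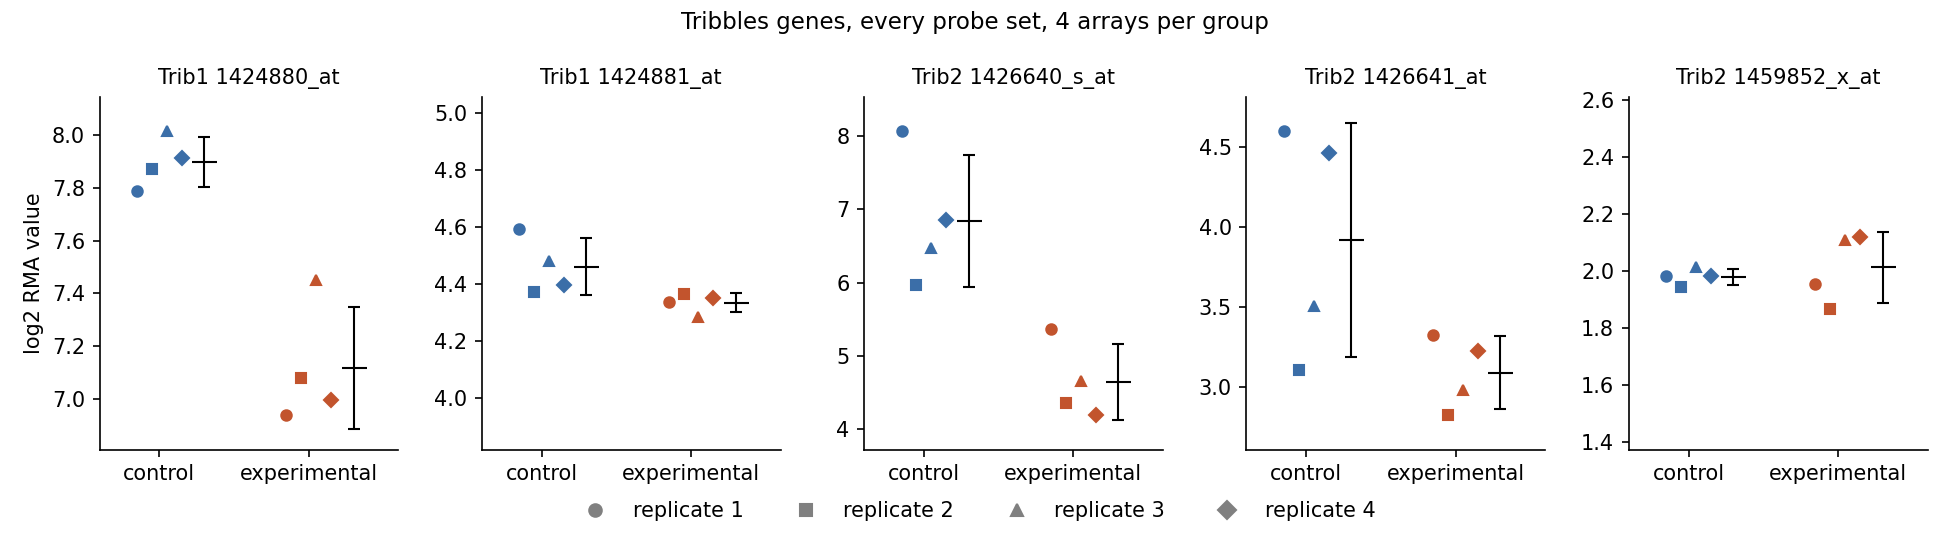
Log2 RMA values of each Trib1 and Trib2 probe set in 4 control and 4 experimental arrays; symbols mark the replicate number, bars the mean and SD, and each panel has its own vertical range that does not start at 0. Trib1 1424880_at and Trib2 1426640_s_at show no overlap between groups, while Trib2 1459852_x_at stays between 1.87 and 2.12 in all 8 arrays.

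The mean of the B cell markers was lower in each experimental array than in each control. Of 9 measured, 5 fell and none rose, with a median log2 difference of -1.31: Ms4a1, which encodes CD20 (-2.82), the B cell receptor chain genes Cd79a (-1.57) and Cd79b (-1.31), Vpreb3 (-1.47) and the adaptor gene Blnk (-1.45). The summed linear level of the list ranged from 1492 to 3148 in controls and from 747 to 1152 in experimental arrays. Its mean was highest in control replicate 1 (8.06), where Trib2 was also highest, and lay between 6.07 and 6.65 in the experimental arrays. Among controls that mean was lowest in replicate 3 (7.00), while Trib2 1426640_s_at was lowest in replicate 2 (5.97). The B cell factor gene Pax5 read 5.19 ± 0.10 and 4.84 ± 0.19 (SD, n = 4 each), near the array medians, and did not pass (adjusted p = 0.149). Ebf1 (-1.29, limma adjusted p = 0.0804), Igll1 (-0.15, adjusted p = 0.893) and Vpreb1 (-0.08, adjusted p = 0.954) did not pass either. Dendritic markers were lower too, and Cd209a and Siglech passed among 4 measured. The summed linear level of that list was 654 to 988 in controls and 315 to 395 in experimental arrays. The part of B or dendritic cells in the fall of Trib2 was not tested.

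Runx1 was lower at all 6 of its probe sets, but no difference passed in the fit without a block. At 1422864_at the controls read 8.36, 9.10, 8.25 and 7.97 and the experimental arrays 7.58, 7.95, 7.75 and 7.18. The groups did not overlap, although control replicate 4 and experimental replicate 2 were only 0.02 apart. The difference was -0.81 ± 0.24 (SE, 57.2% of the control level, adjusted p = 0.121), and it passed with replicate number as a block (adjusted p = 0.0147). At 1422865_at the controls read 7.13, 7.72, 7.51 and 7.52 and the experimental arrays 5.87, 6.79, 7.13 and 6.72, so that control replicate 1 and experimental replicate 3 nearly met. Its difference of -0.84 ± 0.24 (SE, adjusted p = 0.109) also passed with the block (adjusted p = 0.0216).

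The other 4 Runx1 probe sets differed less, by -0.30 at 1440878_at, -0.29 at 1427650_a_at, -0.25 at 1452530_a_at and -0.12 at 1452531_at, with adjusted p of 0.224 to 0.708. Only 1427650_a_at among them had no overlap, with 7.19 to 7.59 in controls and 6.85 to 7.11 in experimental arrays. Among the 15 pairs of Runx1 probe sets the differences lay up to 0.73 apart, and none passed after adjustment over the 18 pairs tested (lowest adjusted p = 0.171, exact permutation). Runx1 is transcribed from a distal and a proximal promoter, and which transcripts each probe set reads was not analysed here.

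**Figure D3:**
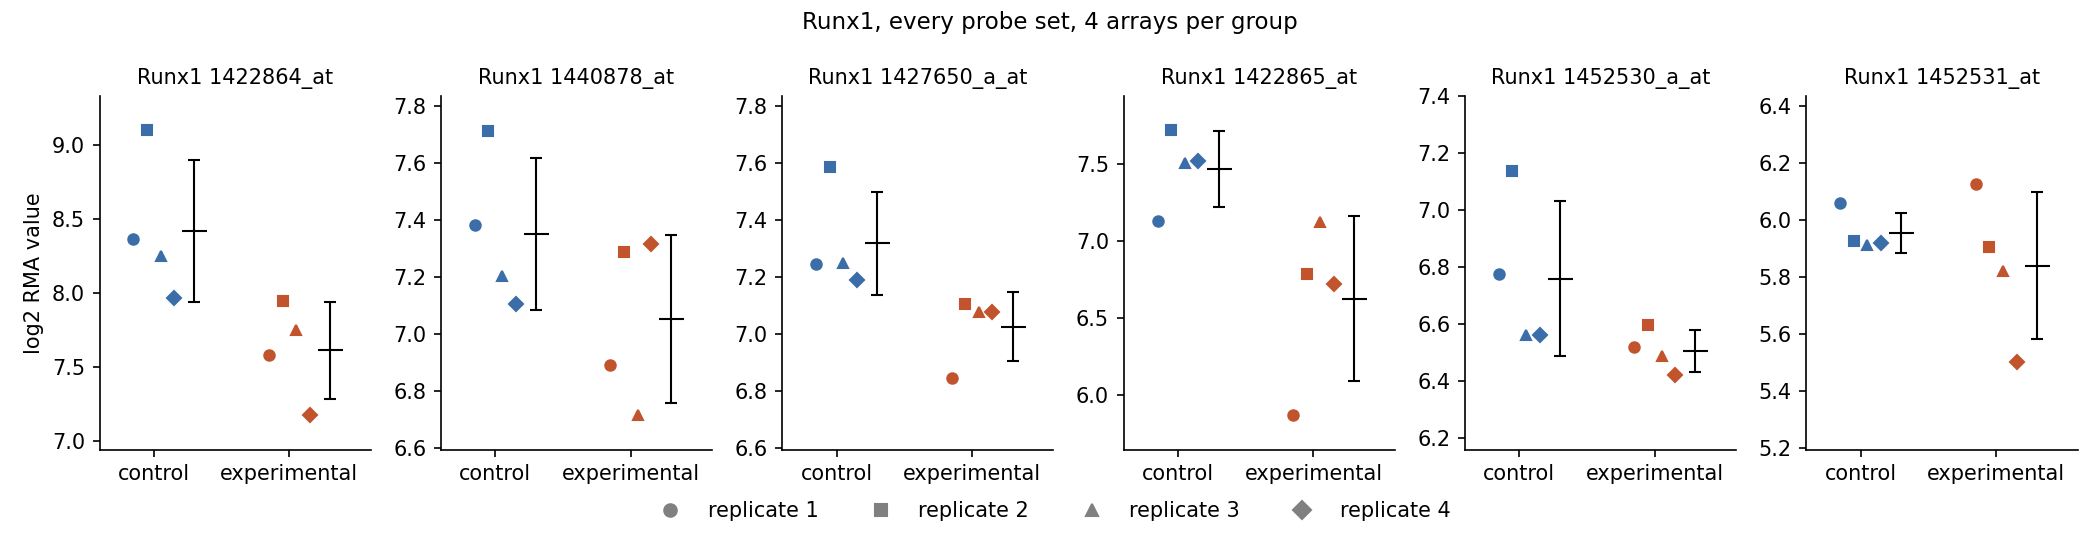
Log2 RMA values of the 6 Runx1 probe sets in 4 control and 4 experimental arrays, with symbols for the replicate number, bars for mean and SD, and a vertical range of its own in each panel that does not start at 0. Experimental means lie below control means in all 6 panels, by 0.84 at 1422865_at and by 0.12 at 1452531_at.

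Runx1 is also a factor of megakaryocytes, and the mean of the markers of that lineage separated the groups. Of 8 measured, 3 fell, namely the platelet chemokine genes Pf4 (-1.49) and Ppbp (-2.24) and the tubulin gene Tubb1 (-1.09), and none rose. The summed linear level of the list was 694 to 1052 in controls and 455 to 511 in experimental arrays. Its mean was highest in control replicate 2 (6.73), the array with the highest Runx1 value at each probe set except 1452531_at, and its part in the Runx1 difference was not tested. Cbfb, which encodes the partner of Runx1, read 11.50 and 11.53 (difference 0.03), and Runx3 read 7.62 in both groups.

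Among the C/EBP genes, Cebpd came nearest to the threshold. At 1423233_at it read 11.76, 12.08, 11.97 and 12.09 in controls and 11.51, 11.70, 11.29 and 11.50 in experimental arrays. Every experimental array lay below every control, with control replicate 1 and experimental replicate 2 only 0.06 apart. The difference was -0.47 ± 0.12 (SE, 72.0% of the control level, adjusted p = 0.0686). It passed with replicate number as a block (adjusted p = 0.0478) and without experimental replicate 2 (adjusted p = 0.0417). At 1456605_at Cebpd read 6.56 to 7.10 in controls and 6.13 to 7.13 in experimental arrays, a difference of -0.25 ± 0.23 (SE, adjusted p = 0.628). In both groups that probe set read lower in replicates 3 and 4 than in replicates 1 and 2.

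Cebpa varied more between arrays than between groups. It read 8.65, 8.49, 9.45 and 9.13 in controls and 8.90, 8.30, 9.84 and 10.23 in experimental arrays. In both groups replicates 3 and 4 were above replicates 1 and 2, and the difference of 0.39 ± 0.39 (SE, adjusted p = 0.674) was 0.03 in the first code style (replicates 1 and 2) and 0.74 in the other. The 95% interval of -0.49 to 1.27 leaves room for a rise as well as for a fall. Cebpb read 10.65 to 11.15 in controls and 10.33 to 11.34 in experimental arrays at 1418901_at, and at 1427844_a_at it read 9.69 ± 0.20 and 9.41 ± 0.52 (SD, n = 4 each). Both probe sets had their lowest experimental values in replicates 1 and 2, with differences of -0.45 and -0.52 there and of 0.01 and -0.04 within replicates 3 and 4, and neither passed (adjusted p = 0.650 and 0.591).

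Monocyte markers varied in the same arrays. Their mean was 8.77 in experimental replicate 2, where Cebpa and Cebpb at 1418901_at were lowest, and 10.49 in experimental replicate 3, where Cebpb was highest. None of the 6 measured passed, their summed linear level ranged from 9509 to 11014 in controls and 4392 to 14439 in experimental arrays, and their part in the Cebpa and Cebpb values was not tested. Promyelocyte markers, which mark an early granulocyte stage, had 1 call among 5, Ms4a3 (10.68 ± 0.33 in controls and 11.51 ± 0.14 in experimental arrays, SD, n = 4 each, limma adjusted p = 0.0298), and a median log2 difference of 0.70. Their mean was 11.48 to 12.59 in controls, with replicates 3 and 4 above 1 and 2, and 12.16 to 12.87 in experimental arrays, highest in replicate 4, where Cebpa was highest too. Their summed linear level was 16350 to 36528 in controls and 24734 to 40926 in experimental arrays, and their part in the Cebpa values was not tested.

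Spi1 read 11.08, 11.46, 11.46 and 11.49 in controls and 11.10, 11.34, 11.39 and 11.54 in experimental arrays. Replicate 1 was the lowest array of each group, and the ranges all but coincided. The difference was -0.03 ± 0.13 (SE, adjusted p = 0.936), with a 95% interval of -0.32 to 0.26, so a change of Spi1 larger than 1.25-fold in either direction lies outside that interval. Gfi1 read 9.13, 8.77, 8.62 and 8.68 in controls and 9.14, 9.12, 8.73 and 8.98 in experimental arrays, each experimental value being at or above that of the control with its number. The difference of 0.19 ± 0.14 (SE, adjusted p = 0.533) did not pass, with or without the block.

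Gfi1b read 7.20 to 7.58 in controls. The experimental arrays read 8.33, 7.39, 7.01 and 7.13, so replicate 1 stood 0.94 above the next. The difference was 0.11 ± 0.26 (SE, adjusted p = 0.882) with all arrays and -0.18 without experimental replicate 1. Erythroid markers were highest in that array as well, with a list mean of 9.12 against 7.64 to 8.17 in the other 7. None of the 6 measured passed, and their summed linear level was 2265 to 3200 in controls and 1832 to 7606 in experimental arrays. Their part in the Gfi1b value was not tested.

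**Figure D4:**
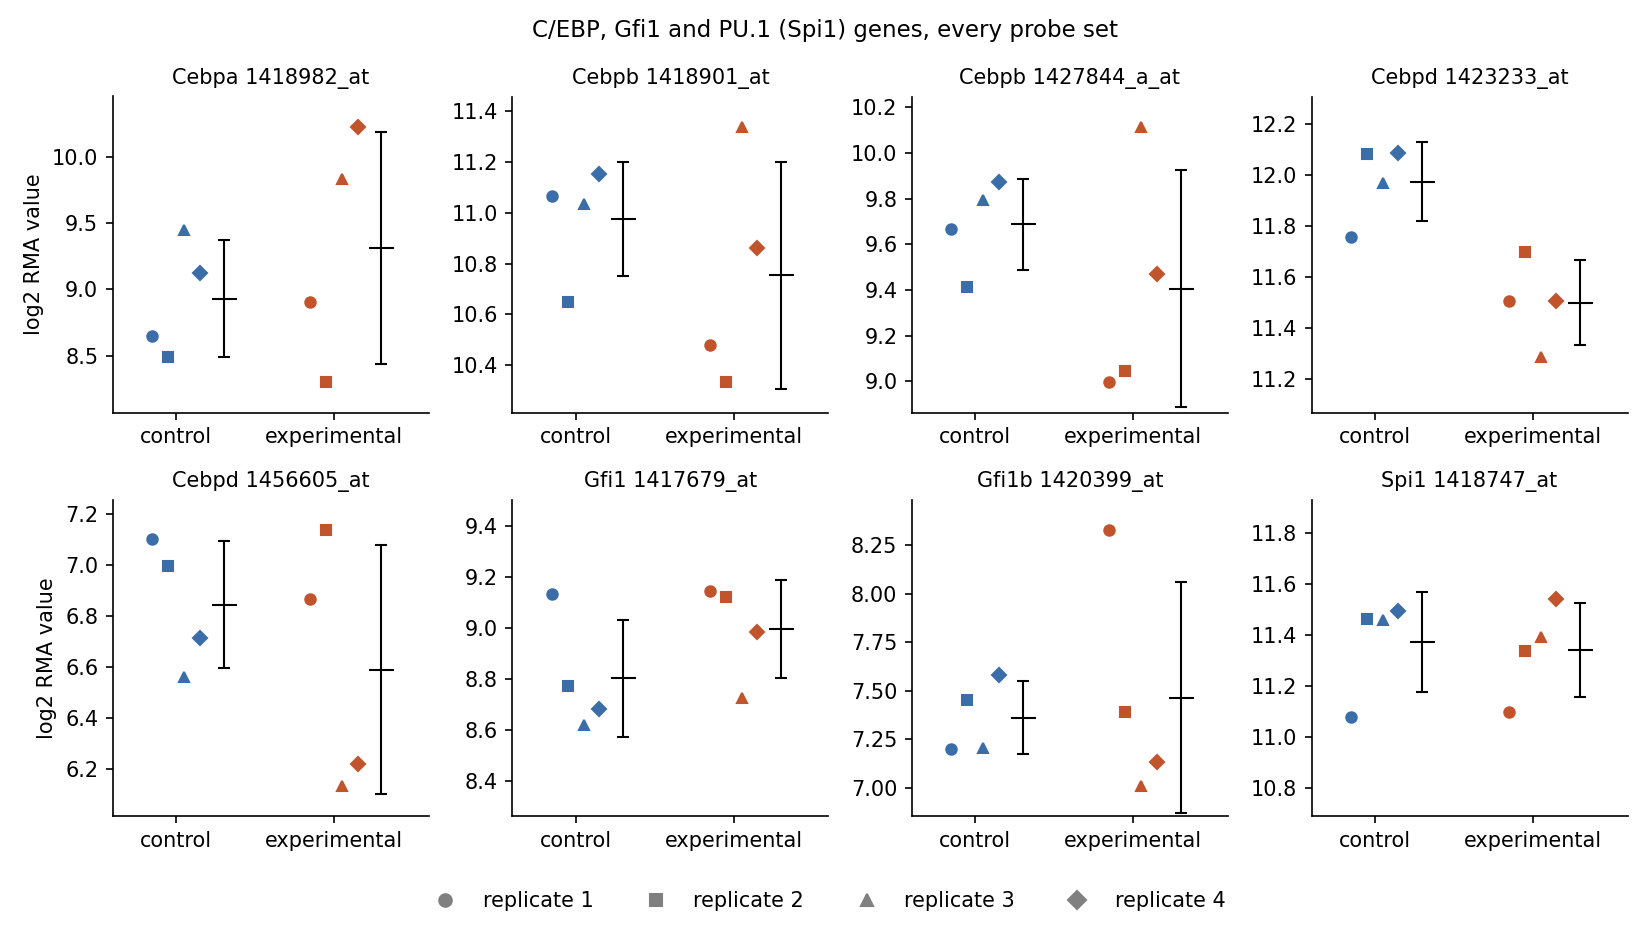
Log2 RMA values of each probe set of Cebpa, Cebpb, Cebpd, Gfi1, Gfi1b and Spi1 in 4 control and 4 experimental arrays, with symbols for the replicate number, bars for mean and SD, and a vertical range of its own in each panel that does not start at 0. Cebpd 1423233_at alone has no overlap, Cebpa is higher in replicates 3 and 4 of both groups, and Gfi1b has 1 high experimental array at 8.33.

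**Figure D5:**
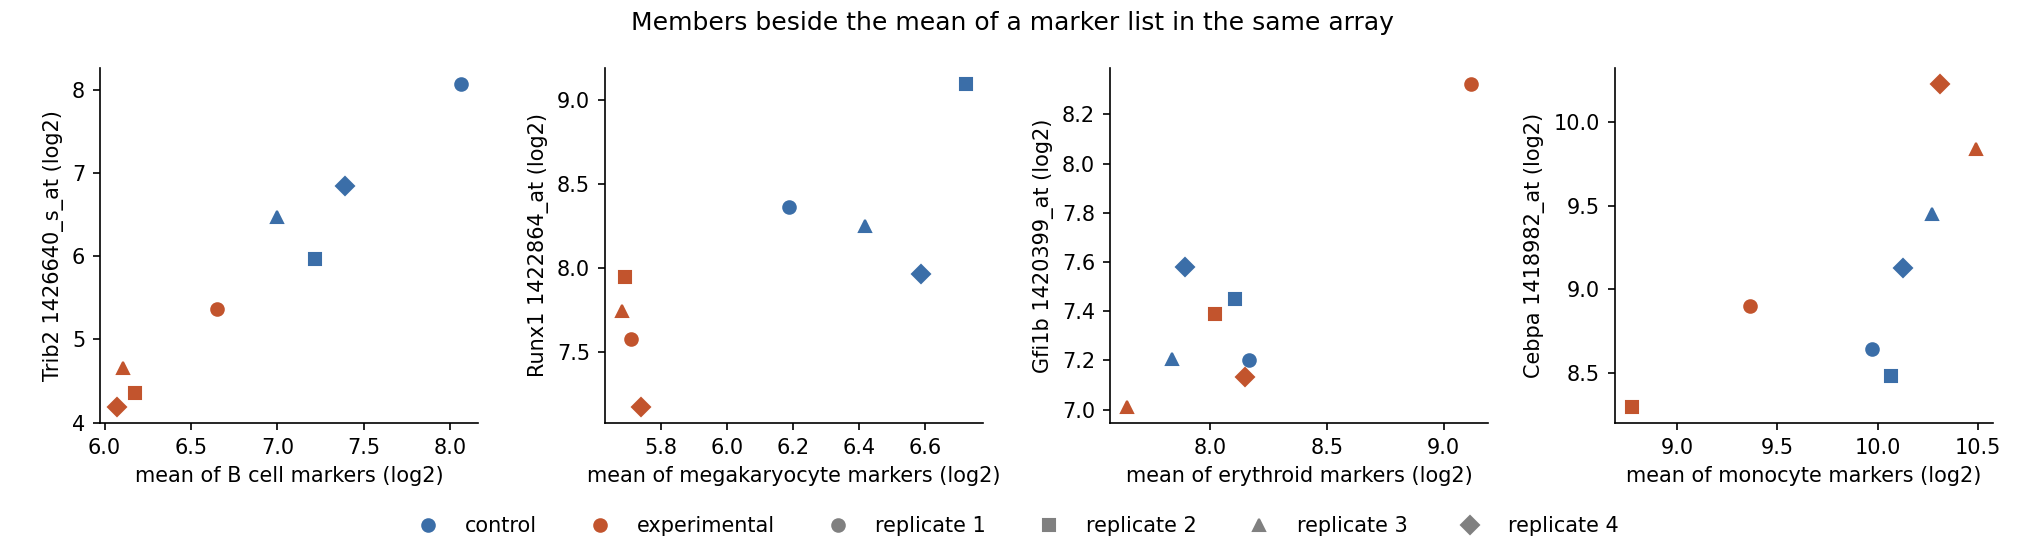
Log2 value of a member probe set (vertical axis) against the mean log2 value of a marker list (horizontal axis) in the same array, for Trib2 with B cell, Runx1 with megakaryocyte, Gfi1b with erythroid and Cebpa with monocyte markers; blue is control, orange experimental, and symbols mark the replicate number. Control replicate 1 is highest on both axes for Trib2 and B cell markers, and experimental replicate 1 for Gfi1b and erythroid markers.

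Promoter windows were examined because E2F proteins bind upstream of many of their targets and the compared mice differ in E2f genes. RefSeq windows of the 250 bases before a start were at hand for 6 of the 10 genes, 8 windows in all, in GRCm38.p6. Searched on both strands, the E2F consensus TTSSCGC, in which S is C or G, occurred in 7.89% of 32851 windows of the same length. It matched the windows of Cebpb and Gfi1b and none of those of Cebpa, Gfi1, Runx1 and Trib2. The Trib2 window is shown because Trib2 changed most, and the others because they hold the letters. Capitals mark the matches, and each is written 5′ to 3′ on the strand of the gene.
Trib2: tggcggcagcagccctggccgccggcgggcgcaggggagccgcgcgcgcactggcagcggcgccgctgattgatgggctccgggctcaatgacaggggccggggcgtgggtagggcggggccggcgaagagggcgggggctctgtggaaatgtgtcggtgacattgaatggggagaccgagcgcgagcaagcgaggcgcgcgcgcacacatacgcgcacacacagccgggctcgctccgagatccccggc
Gfi1b: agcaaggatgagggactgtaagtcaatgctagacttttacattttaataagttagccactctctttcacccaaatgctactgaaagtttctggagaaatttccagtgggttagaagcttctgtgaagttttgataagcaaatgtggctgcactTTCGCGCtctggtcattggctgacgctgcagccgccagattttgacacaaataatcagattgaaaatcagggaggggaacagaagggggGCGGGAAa
Cebpb: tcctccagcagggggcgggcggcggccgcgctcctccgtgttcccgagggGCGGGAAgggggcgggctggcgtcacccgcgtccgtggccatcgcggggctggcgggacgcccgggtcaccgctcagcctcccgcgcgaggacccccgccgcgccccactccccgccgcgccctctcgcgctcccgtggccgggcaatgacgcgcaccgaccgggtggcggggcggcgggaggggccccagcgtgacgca
The Trib2 window is chr12:15816786-15817035 on the minus strand, that of Gfi1b chr2:28621983-28622232 on the minus strand and that of Cebpb chr2:167688665-167688914 on the plus strand. In Gfi1b the matches end 91 and 2 bases before the start, and in Cebpb the match ends 194 bases before it. No window was at hand for Trib1, the other gene with a call, or for Cebpd, Cebpe and Spi1. Any relation between the matches and the group differences was not tested. Of the other searches, TTGC then any 2 bases and AA, a C/EBP site, was in 1 Gfi1 window (9.56% of all windows). The PU.1 letters GAGGAA were in 1 Runx1 window (23.3% of all), and the Gfi1 letters AAATC were in the Gfi1b window at 2 places and in 1 Runx1 window (32.7% of all). The Runx letters TGTGGT were in no member window (14% of all). Such matches describe the letters of a window and not binding.

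Partners and targets of these regulators were read in 6 lists that named 75 genes, of which 73 were measured, each by its brightest probe set. Of these 7 passed, 1 higher and 6 lower, or 9.59%, against 3.47% of all 18193 genes (1.53% higher and 1.95% lower). The lists were chosen with earlier results of these data known, so the higher share is no evidence about these genes as a set. The genes that work with Tribbles proteins showed no call: of 8, none passed, with a median log2 difference of 0.03 against 0.01 over all genes. Cop1, the ubiquitin ligase, read 11.03 in controls and 10.84 in experimental arrays (-0.19), and the kinase gene Map2k1 read 10.59 and 10.62 (0.04). Among 12 corepressors and partners of Gfi1 none passed either, with a median of 0.03. The scaffold gene Rcor1 (9.70 and 9.79) and the deacetylase gene Hdac1 (9.47 and 9.24) were the brightest.

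Relatives and partners of PU.1 and Runx1 held 3 of the calls, all lower among 18 measured, with a median of -0.12. Spib, a PU.1 relative of B cells and plasmacytoid dendritic cells, fell by 2.48 ± 0.30 on the log2 scale (SE, n = 4 per group, adjusted p = 0.00575 by limma), from 8.14 ± 0.34 to 5.66 ± 0.67 (SD). Irf4, a partner of PU.1 in B cells, fell by 1.18 ± 0.19 (SE, adjusted p = 0.0157), and without control replicate 4 it did not pass (adjusted p = 0.0564). Ets2, an ETS factor of macrophages, fell by 0.77 ± 0.11 (SE, adjusted p = 0.0104). Both Spib and Irf4 are also expressed in B and dendritic cells, whose marker list means were lower in the experimental arrays as given above. The part of these cells in the falls of Spib and Irf4 was not tested.

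C/EBP target genes of granulocytes had 1 call among 14, and so had PU.1 target genes among 12, in both lists Csf3r. This gene encodes the receptor for G-CSF, and it fell by 0.65 ± 0.09 on the log2 scale (SE, adjusted p = 0.00943 by limma), from 11.92 ± 0.12 to 11.27 ± 0.06 (SD, n = 4 each). The median difference was -0.05 in the C/EBP list and -0.08 in the PU.1 list. Of the primary granule genes in the C/EBP list, none passed: Ctsg differed by 1.08, Prtn3 by 0.70, Mpo by 0.27 and Elane by 0.26. The secondary granule genes differed by -0.13 (Camp), -0.06 (Ltf), -0.06 (Ngp) and -0.03 (Lcn2) without a call. These last read near the highest values of the arrays (14.36 to 14.54), such as Camp at 14.46 and 14.33, where a change may not be measurable.

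Among 13 measured targets of Gfi1, 1 rose and 2 fell, with a median of -0.08. Cdkn1a, which encodes the cell cycle inhibitor p21, rose by 2.25 ± 0.18 on the log2 scale (SE, adjusted p = 0.00113 by limma). The inhibitor of helix-loop-helix factors Id1 fell by 0.78 ± 0.16 (SE, adjusted p = 0.0368), and Csf1, which encodes the macrophage growth factor, by 0.77 ± 0.15 (SE, adjusted p = 0.0326). Without 1 array, Csf1 passed in 1 of 8 fits and Id1 in 2, with adjusted p up to 0.0976 and 0.117, while Cdkn1a, Csf3r, Ets2 and Spib passed in all 8. Gfi1b, itself a target of Gfi1, and the monocyte factor gene Irf8 (-0.08) did not pass.

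For the members with a call, the genes whose deviations from the group means were most alike over the 8 arrays were ranked by Pearson's correlation, as a description without a test, since they are the highest of 18192 and the arrays share their code style. For Trib1 these were Ism1 (0.99), the cyclin F gene Ccnf (0.98), Dync1li2 (0.98), Fabp12 (0.98) and Fam229b (0.97). For Trib2 they were the chromatin gene Dek (0.95), Dntt, the terminal transferase of lymphoid precursors (0.94), Galr1 (0.94), Stab2 (0.94) and Thoc7 (0.93). Of these 10 genes Ccnf alone passed the comparison of groups, with a log2 difference of -1.28 (adjusted p = 0.00303). Fabp12 and Fam229b had means of 3.19 and 3.39, below the 25th percentile of all probe sets (3.46).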

How the data were processed

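RNA from Cd11b-positive marrow cells, 2.5 µg per sample, was labelled with biotin and hybridised to Affymetrix arrays. Per the submitters' processing notes, the deposited log2 values were made by the authors with RMA, which corrects background, normalizes quantiles between arrays and summarises the probes of a probe set; its version, and whether all 8 arrays were normalized together, are not given in the sources used here. Without 64 Affymetrix controls, 45037 of the 45101 probe sets entered the fit. The platform annotation paired 34945 with 1 gene symbol, 932 with several and 9160 with none, and 34741 matched RefSeq by gene identifier.

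Samples were grouped by title. limma 3.58.1 in R 4.3.3 fitted group alone, and p was adjusted by Benjamini-Hochberg across the 45037 probe sets. The fit was tested on simulated data. Errors are moderated SEs for differences and SDs for levels. For analyses of genes the probe set with the highest mean stood for a gene. The members and lists were chosen with earlier results of these data known. Named are every member probe set, every list gene past the threshold (or the 2 brightest of a list with none) and the 5 genes most like each member with a call; other partners and markers were named after their values were seen. Control and experimental arrays with the same number had correlated deviations from their group means (0.20 to 0.26 across probe sets in the 4 pairs). The main fit did not use this pairing, and values with the number as a block are given where they change a call. Arrays of the same code style and another number correlated at 0.14 to 0.26, and those of the other style at -0.27 to -0.13. A pairing by number can therefore not be told apart from a shared code style. Sex read from Xist and Eif2s3y was male in 2 controls and 1 experimental sample. The number of arrays limits the precision. Figures were drawn with matplotlib 3.10.9.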

Additional observations from a re-analysis of the deposited data

Results flagged for a closer look

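In 4 of 38 groups of 4 arrays, 1 array lay far from the other 3, by Dixon's ratio of the gap to its neighbour over the group's range. Chance gives about 1 in 20 such groups if they are independent, which probe sets of 1 gene are not. The ratio is relative to the group's own range, which can be narrow. Spi1 was lowest in control replicate 1 (11.08, share 0.918). At Runx1 1427650_a_at, control replicate 2 was highest (7.59, share 0.851) and experimental replicate 1 lowest (6.85, share 0.886). At Runx1 1452531_at, control replicate 1 was highest (6.06, share 0.917), though only 0.13 above the next control.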

How the results depend on the processing

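The 19 probe sets of these genes were refitted under the alternatives listed here, except that the filter at a mean of 6 tested 14 of them and the filter at the median 16. Neither member call changed direction where it was refitted. The count of 2 member calls was 6 with replicate number as a block, which added Cebpd 1423233_at, Runx1 1422864_at and 1422865_at and Trib2 1426641_at, and 4 with code style as a block, which added Cebpd 1423233_at and Runx1 1422864_at. It was 1 with only probe sets of mean at least 6 (Trib2 1426640_s_at was not tested), 1 with inferred sex as a block, an alternative chosen after seeing the data (Trib2 adjusted p = 0.0584), 0 within replicates 1 and 2, 1 within replicates 3 and 4, and 0 to 3 without 1 array. The 7 calls of list genes became 11 with either block, 0 and 3 within the pairs of replicates, and 4 to 10 without 1 array. Over all probe sets 1162 calls became 2277 with the replicate block, 2582 with code style, 663 with inferred sex, 130 and 418 within replicates 1 and 2 and within 3 and 4, and 395 to 1744 without 1 array. The paired form of the Trib2 comparison could not go below an exact permutation p of 0.125. Median centring, quantile normalization, trended and robust variance, array weights and the filter at the median left both member calls in place. The pairs of replicates hold fewer arrays; the cause of the other changes was not tested.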
